A study of Mus musculus with 16 samples.

Results

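The genes described here are the 3 Myc family genes Myc, Mycn and Mycl, the 3 D-type cyclin genes Ccnd1, Ccnd2 and Ccnd3, and Cdk4 and Cdk6, whose kinases the D cyclins switch on. The regions taken were those of 3 ChIP-seq lists that lay within 100 kb of these 8 gene bodies on mm10, 163 of 135884 regions in all. They comprised 7 of 10888 succinyllysine regions, 45 of 26654 H3K4me3 regions and 111 of 98342 H3K27me3 regions. The 8 genes lie on 8 chromosomes, so no region was counted for more than 1 of them.

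The cells were immortalized mouse embryonic fibroblasts of 2 lines. In both, R26M2rtTA (a doxycycline-responsive activator) and TetOcre (the Cre recombinase it drives) act on floxed Sdhc, the gene of a membrane subunit of succinate dehydrogenase. The experimental line was R26M2rtTA/+;TetOcre;Sdhcfl/fl and the control line was R26M2rtTA/+;TetOcre;Sdhcfl/wt, so the controls also carried 1 floxed copy, Cre and doxycycline (1 µg/mL). Both were taken at day 16, with 2 ChIP samples per line and antibody and 2 inputs per line, 16 samples in all. Each antibody has 1 list for its 4 ChIP samples, with positions alone. A value per sample, a spread between replicates and a difference between fl/fl and fl/wt cells therefore could not be had, and no test was made. Read depth is unknown. The labelled cell type was checked on gene ends. H3K4me3 lay at 9 of 10 fibroblast marker genes (all but Thy1) and at 2 of 14 markers of other cell types (Epcam and Cdh1). H3K27me3 lay at 0 of the 10 and 5 of the 14, and succinyllysine at 4 of the 10 and 1 of the 14. Over all protein-coding genes the shares were 55.6% for H3K4me3, 13.6% for H3K27me3 and 5.42% for succinyllysine.

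Growth signals lead cells to make Myc proteins and D cyclins. Myc proteins pair with Max and bind E-boxes, short DNA motifs at many growth genes. D cyclins bind Cdk4 or Cdk6, which phosphorylate the retinoblastoma protein and so release E2F factors for entry into S phase. In fibroblasts Myc and Ccnd1 are classical targets of serum and growth factors. H3K4me3 is known as a histone mark of active and poised promoters and H3K27me3 as the mark that Polycomb complexes lay on silenced chromatin. Lysine succinylation is a modification made from succinyl-CoA, the metabolite from which succinate forms.

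H3K4me3 was at a gene end of 7 of the 8 genes, beside 55.6% of the 21887 protein-coding genes. A mark was called at an end when 1 bp or more of a region fell in the 1000 bp on either side of the lower or upper end of the gene in the annotation. The eighth gene, Ccnd3, had H3K4me3 inside the gene only, as did 5.75% of all genes. H3K27me3 was at an end of 2 genes, Mycn and Ccnd2 (13.6% of all genes), and inside only in 0 genes (6.49% of all genes). Succinyllysine was at an end of 1 gene, Cdk4 (5.42% of all genes), and inside only in 1, Ccnd3 (4.71%). The genes with H3K4me3 as the one mark at their ends were Myc, Mycl, Ccnd1 and Cdk6, 4 of 8 (47.9% of all genes).

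Beyond the genes, within 100 kb, all 8 had H3K4me3 (82.5% of all genes), 6 had H3K27me3 (63.5% of all genes) and 1, Myc, had succinyllysine (38.4% of all genes). Of the 32 H3K4me3 regions beyond the genes, 23 (71.9%) lay at an end of a neighbouring gene, by the same 1000 bp windows, as did 50.8% of all H3K4me3 regions at an end of any annotated gene. Of the 107 H3K27me3 regions there, 12 (11.2%) did so, beside 11.0% of that list, and of the 5 succinyllysine regions 1 did, beside 15.6% of that list. Many of these regions share a neighbourhood, with 12 of the 32 H3K4me3 regions around Cdk4 and 7 around Ccnd3. The shares over a list take all its regions, at any distance from a gene, so they are not a like set. The differences were not tested.

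**Figure D1:**
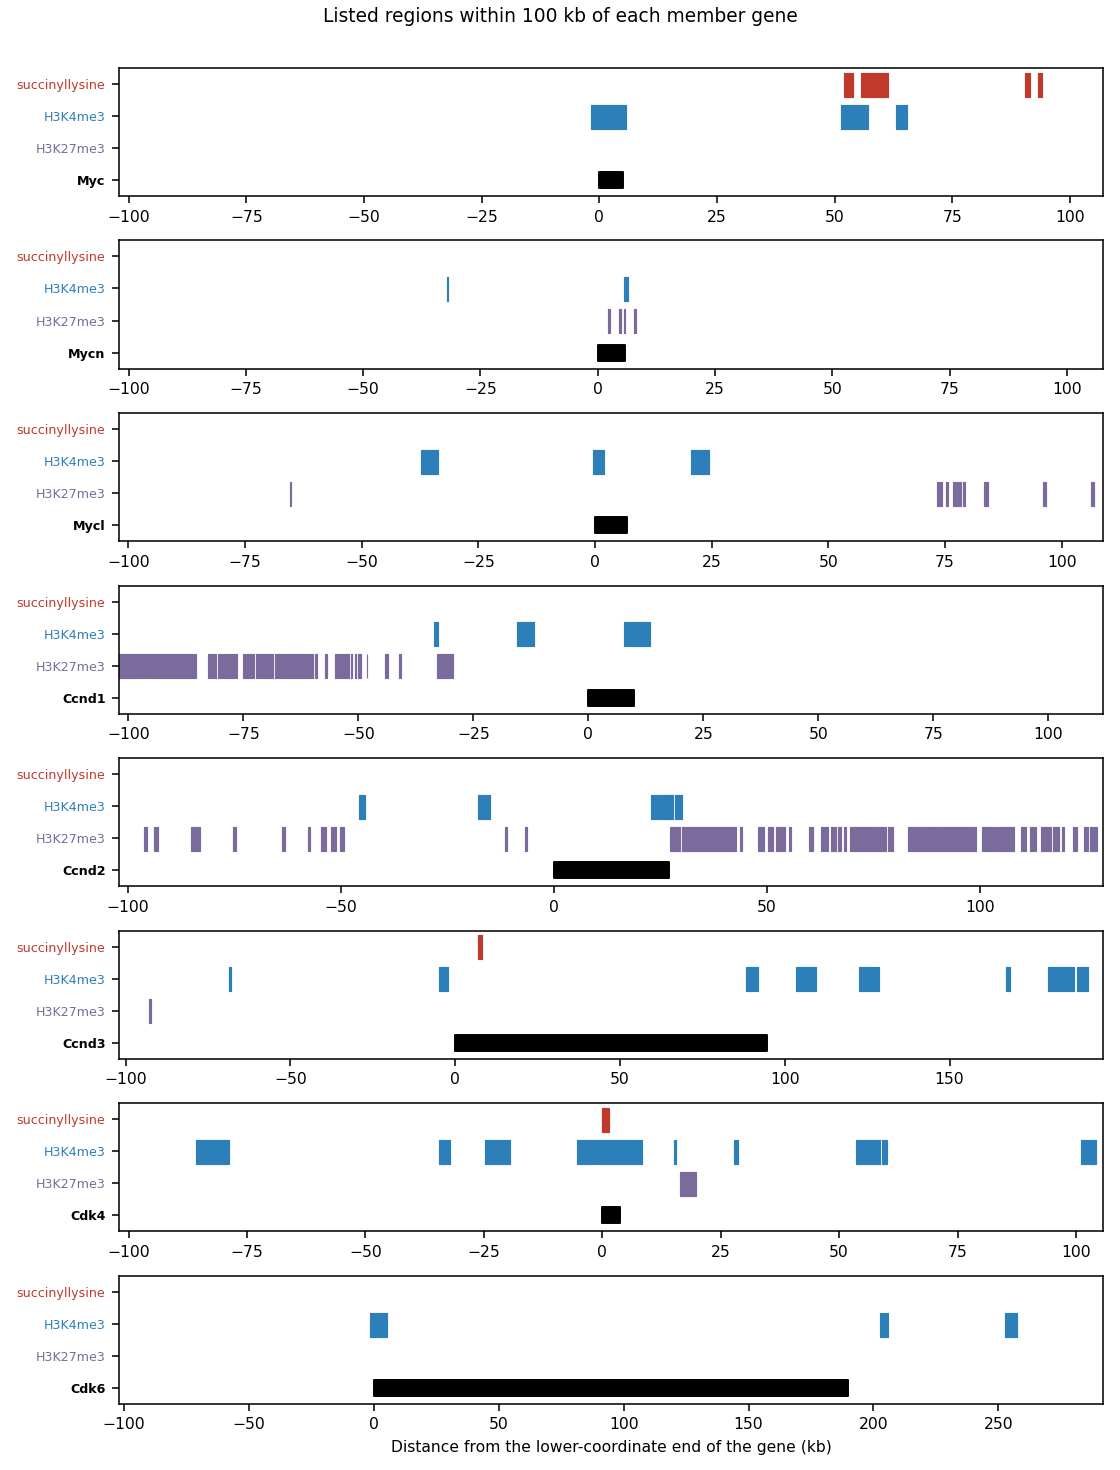
Listed regions of succinyllysine (red), H3K4me3 (blue) and H3K27me3 (purple) around the 8 genes. The x axis is the distance in kb from the lower-coordinate end of each gene, and the black bar is the gene body; thin outlines widen the narrowest regions slightly. H3K27me3 was dense on 1 side of Ccnd1 (28 regions below it) and of Ccnd2 (50 regions above it) and was not listed within 100 kb of Myc or Cdk6.

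Among the Myc family genes, the H3K4me3 region at Myc was the widest and those at Mycn were the narrowest. Myc (chromosome 15, 61985341 to 61990361) encodes the family member made in most dividing cells. Its whole 5021 bp body lay under 1 H3K4me3 region of 7500 bp (61983501 to 61991000), which ran 1840 bp past the lower end and 639 bp past the upper end. Of all genes with H3K4me3 at an end, 96.7% had a narrower widest region there, and the median was 3500 bp. H3K4me3 covered the whole gene body at 2 of the 8 genes, Myc and Cdk4, and at 2.4% of all genes.

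No succinyllysine and no H3K27me3 region touched Myc. The nearest H3K27me3 region was 895240 bp away, and 96.1% of all genes had one closer. The 5 succinyllysine regions within 100 kb of Myc all lay above it, between 47.0 and 88.1 kb from its upper end, and all 5 overlapped Pvt1. Pvt1 (62037986 to 62260215) is a long noncoding RNA gene known as the neighbour of Myc in human and mouse. Having 5 or more succinyllysine regions in the flanks was found for 1 of the 8 genes and for 4.65% of all genes. The limit of 5 is the count of Myc itself. Its regions of 3000 and 2700 bp followed each other without a gap, so with abutting regions joined Myc would fall below that limit.

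At Pvt1, succinyllysine and H3K4me3 overlapped at the lower end and parted inside the gene. A 1900 bp succinyllysine region (62037401 to 62039300) lay wholly within a 5600 bp H3K4me3 region (62036701 to 62042300). A second one of 3000 bp (62041001 to 62044000) shared 1300 bp with it. Another of 2700 bp began at the next base and shared none, and neither did those of 1100 bp and 900 bp about 85.3 and 88.1 kb from Myc. Over the whole of Pvt1 there were 8 succinyllysine regions with a summed width of 13300 bp, of which the 3 outside the 100 kb limit were 1500, 1300 and 900 bp wide. H3K4me3 had 2 regions over Pvt1 and H3K27me3 had 0.

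Mycn (chromosome 12, 12936093 to 12941836), the family member of embryonic neural and other progenitor cells, carried narrow regions of both histone marks. H3K4me3 regions of 500 bp (12941601 to 12942100) and 400 bp (12942201 to 12942600) lay at the upper end, where the annotated start is. Only 1.74% of genes with H3K4me3 at an end had a narrower widest region. H3K27me3 regions of 400 bp (12940701 to 12941100) and 200 bp (12941701 to 12941900) lay at the same end, the second one entirely within the 500 bp H3K4me3 region. Another H3K27me3 region of 500 bp lay inside the gene, and 1 of 400 bp lay 2.06 kb above it. No succinyllysine region was listed within 100 kb of Mycn, and the nearest was 307364 bp away.

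The Mycn promoter, from 250 bases before to 50 bases after the annotated start, is shown because both histone marks fell on it: H3K4me3 over all 300 bases and H3K27me3 over 114. Over all 21263 promoter windows of protein-coding genes, 54.1% touched H3K4me3 and 5.93% touched H3K27me3. Capitals mark matches to the E2F motif, searched on both strands as the letters TTCCCGC, the letters TTCGCGC, the letters TTGCCGC and the letters TTGGCGC. The first stretch in capitals holds 2 matches that overlap, and the second holds 1. At least 2 matches occurred in 1.63% of all promoter windows. The sequence is from RefSeq (GRCm38.p6), chr12:12941787-12942086, minus strand, 5′ to 3′.
Mycn promoter: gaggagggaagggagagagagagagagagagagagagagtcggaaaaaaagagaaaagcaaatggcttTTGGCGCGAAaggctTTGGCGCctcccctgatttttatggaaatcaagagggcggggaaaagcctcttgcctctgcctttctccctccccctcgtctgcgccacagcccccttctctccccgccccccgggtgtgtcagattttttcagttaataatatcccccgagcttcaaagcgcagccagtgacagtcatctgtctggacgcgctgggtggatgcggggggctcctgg

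Mycl (chromosome 4, 122995588 to 123002490) encodes L-Myc. It had 1 H3K4me3 region of 2400 bp (122995201 to 122997600) at its lower end, the end of its annotated start, and 22.8% of genes with H3K4me3 at an end had a narrower widest region. The other H3K4me3 regions within 100 kb lay at the ends of Mfsd2a, a lipid transporter gene (3600 bp), and Trit1, a tRNA modification gene (3900 bp). The 11 H3K27me3 regions around Mycl were 200 to 1000 bp wide and lay at least 65.1 kb from it, 1 below and 10 above. None of them lay at an end of another gene. The nearest succinyllysine region was 107387 bp away, just outside the 100 kb limit.

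The 3 D cyclin genes had different arrangements of the marks. Ccnd1 (chromosome 7, 144929931 to 144939831) encodes cyclin D1, the D cyclin best known as a growth factor target in fibroblasts. Its H3K4me3 region of 5800 bp (144937601 to 144943400) covered the upper end and ran 3569 bp past it, and 88.3% of genes with H3K4me3 at an end had a narrower widest region. No H3K27me3 region touched the gene, and the closest one ended 37200 bp below the start of that H3K4me3 region. Below the gene, however, 28 H3K27me3 regions covered 44.4% of the flank, whereas above it there were 0. Of all genes, 5.02% had a flank covered at least as much.

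Of the 28 H3K27me3 regions below Ccnd1, 4 lay at an end of the fibroblast growth factor genes Fgf3, Fgf4 or Fgf15. The widest region, 11000 bp (144833701 to 144844700), covered Fgf3. Regions of 6400 bp and 2100 bp lay at the ends of Fgf4. A 3400 bp region (144897001 to 144900400) lay at Fgf15 and the noncoding gene Gm26793, 29.5 kb from Ccnd1, and shared 300 bp with an H3K4me3 region of 900 bp. Among the 2622 genes with 28 or more H3K27me3 regions in their flanks, 506 (19.3%) had them on 1 side alone, as Ccnd1 did. The remaining H3K4me3 region near Ccnd1, of 3600 bp, lay at an end of LTO1, whose other end overlaps the lower end of Ccnd1, and at the noncoding RNA gene Bc1. The nearest succinyllysine region was 104369 bp from Ccnd1, just beyond the 100 kb limit.

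Ccnd2 (chromosome 6, 127125162 to 127152188), which encodes cyclin D2, was the D cyclin gene with both histone marks at the same end. H3K4me3 regions of 3200, 1200 and 700 bp lay at its upper end, and 1 of 1600 bp followed 1.51 kb above it. The 700 bp H3K4me3 region (127152501 to 127153200) was also listed for H3K27me3 with the same start and end, which held for 95 regions of the whole H3K4me3 list (0.356%). The 1600 bp region shared 1200 bp with H3K27me3. H3K4me3 overlapped H3K27me3 at an end of 2 of the 8 genes, Ccnd2 and Mycn, beside 1.65% of all genes. The chromatin was of bulk cells, so both marks on the same alleles and each mark in different cells cannot be told apart.

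Above this end, H3K27me3 regions were listed up to the 100 kb limit. The first 20 kb held 15300 bp of it, in regions that included 1 of 6400 bp (127155401 to 127161800) and 1 of 3800 bp (127161901 to 127165700). In all, 50 H3K27me3 regions beyond the upper end covered, together with the rest of the 700 bp region, 65.3% of that flank, against 9.6% of the lower flank with 13 regions. Of all genes, 383 (1.75%) had a flank covered at least as much as the upper flank of Ccnd2. Much of that stretch lies in the noncoding gene 9330179D12Rik (127149389 to 127212419), which overlaps the end of Ccnd2, and regions also lay within 1000 bp of an end of the pseudogenes Gm18995 and Gm4968. On the lower side a 1300 bp H3K27me3 region lay at an end of Fgf23, a hormone gene of phosphate balance. Fgf23 also held a 1000 bp H3K27me3 region and a 1400 bp H3K4me3 region. A 2900 bp H3K4me3 region lay at Tigar, a metabolic p53 target. No H3K27me3 region lay on the body of Ccnd2, and the nearest succinyllysine region was 1130312 bp away.

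**Figure D2:**
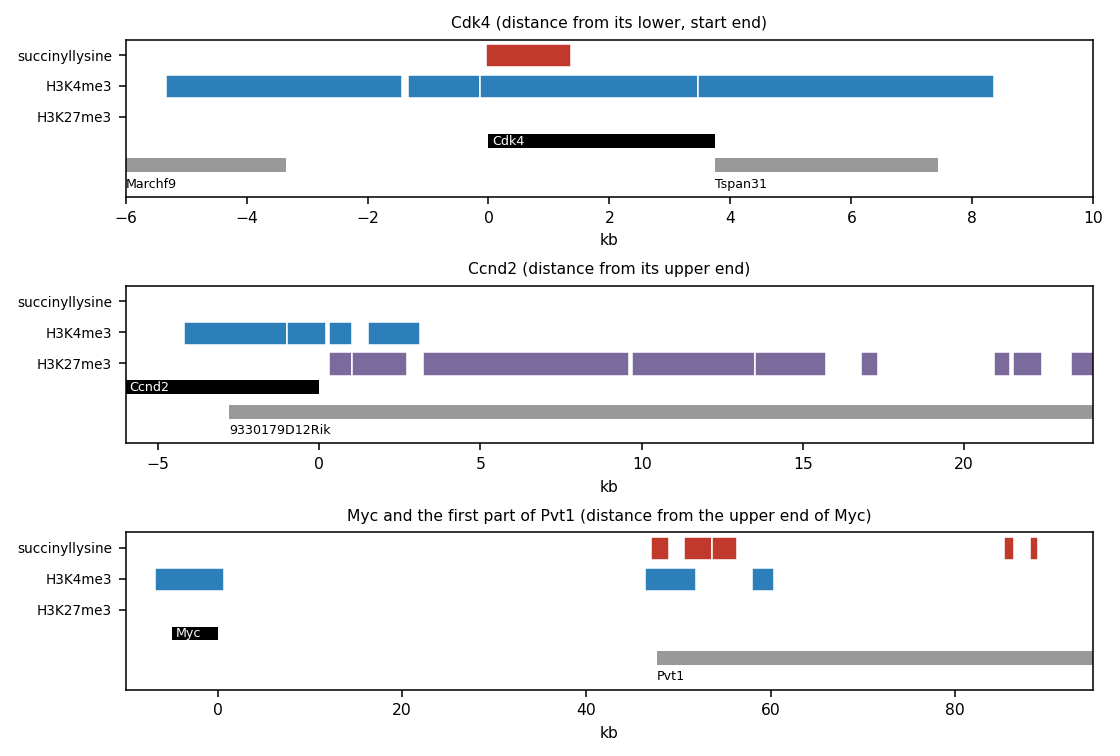
Regions at Cdk4, at the upper end of Ccnd2, and from Myc into Pvt1. The x axes give kb from the end named above each panel, coloured bars are regions with white lines between abutting ones, black bars are the member genes, and grey bars are neighbouring genes. The 1400 bp succinyllysine region lay over the start of Cdk4, H3K4me3 and H3K27me3 met above Ccnd2, and the succinyllysine regions near Myc lay over Pvt1.

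Ccnd3 (chromosome 17, 47505051 to 47599689) encodes cyclin D3 and spans 94639 bp. None of the 3 marks was listed at its outer ends. Inside the gene were 1 H3K4me3 region of 3500 bp (47593301 to 47596800) and 1 succinyllysine region of 1200 bp (47512101 to 47513300). The promoter table gives 2 starts, one at the lower end of the gene (47505051) and one inside it (47593467). The H3K4me3 region covered 216 of the 300 bases of the inner promoter and 0 of the outer one. The succinyllysine region lay 7050 bp above the outer start and shared no base with either histone mark. The gene table gives no exons, so whether it lies in an exon or an intron was not determined here.

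Both Ccnd3 promoters are shown because H3K4me3 fell on one and not on the other; they were chosen after the values were seen. Capitals mark CpG dinucleotides, of which the outer promoter has 15 and the inner one has 28, against a median of 13 over all promoter windows. The sequences are from RefSeq (GRCm38.p6), plus strand, 5′ to 3′, at chr17:47504801-47505100 (outer) and chr17:47593217-47593516 (inner).
Ccnd3 outer promoter: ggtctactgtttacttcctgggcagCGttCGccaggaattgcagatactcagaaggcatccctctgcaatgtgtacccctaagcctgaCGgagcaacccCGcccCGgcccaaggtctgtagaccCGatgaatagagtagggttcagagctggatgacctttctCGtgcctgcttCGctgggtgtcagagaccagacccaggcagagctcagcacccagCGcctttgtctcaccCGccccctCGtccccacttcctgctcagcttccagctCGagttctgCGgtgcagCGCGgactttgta
Ccnd3 inner promoter: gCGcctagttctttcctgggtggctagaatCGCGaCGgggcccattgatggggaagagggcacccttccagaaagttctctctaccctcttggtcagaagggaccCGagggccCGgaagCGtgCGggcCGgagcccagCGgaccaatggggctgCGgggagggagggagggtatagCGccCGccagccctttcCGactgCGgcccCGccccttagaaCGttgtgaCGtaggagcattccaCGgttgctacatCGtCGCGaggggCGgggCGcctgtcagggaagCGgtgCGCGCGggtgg

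Of the 7 H3K4me3 regions beyond Ccnd3, 6 lay at an end of another gene. They included 2700 bp at Taf8, a subunit gene of the general transcription factor TFIID, 2.25 kb below Ccnd3, and 5800 bp at Bysl and Med20, which act in ribosome assembly and in the Mediator complex. The widest, of 8000 bp, lay where Usp49, Tomm6, Frs3 and Prickle4 meet. The single H3K27me3 region, 500 bp wide, lay 92.5 kb below Ccnd3 at the ends of Guca1a and 1700001C19Rik.

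The 2 kinase genes differed in succinyllysine. Cdk4 (chromosome 10, 127063535 to 127067288) was the one gene of the 8 with succinyllysine at an end. The 1400 bp succinyllysine region (127063501 to 127064900) began 34 bp before the annotated start and ended 1365 bp after it. It lay wholly within a 3600 bp H3K4me3 region (127063401 to 127067000). Succinyllysine overlapped H3K4me3 at an end of 1 of the 8 genes and of 4.27% of all genes. Of the 1187 genes with succinyllysine at an end, 62% had a narrower widest region than Cdk4, and the median was 1100 bp.

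H3K4me3 at Cdk4 was listed as 3 regions that followed each other without a gap, of 1200, 3600 and 4900 bp, and joined they were 9700 bp long. The last one (127067001 to 127071900) lay over the upper end of Cdk4 and the whole of Tspan31. Tspan31 is a membrane protein gene annotated from 127067287 to 127070972. A further 12 H3K4me3 regions lay within 100 kb of Cdk4, more than the number for 95.5% of all genes, and 9 of the 12 lay at an end of another gene, among them Marchf9, Mettl1 and Os9. The 3 H3K27me3 regions near Cdk4 were 600, 1000 and 1800 bp wide and formed 1 stretch that began 12.7 kb above it.

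The Cdk4 promoter is shown because Cdk4 had succinyllysine at an end. Succinyllysine fell on 84 of the 300 bases of this promoter and H3K4me3 on all of them. Over all promoter windows, 2.85% touched succinyllysine. Capitals mark the E-box CACGTG, which reads the same on both strands. It occurs 4 times in this window, and 5 of the 21263 promoter windows (0.0235%) hold 4 or more, while 7.84% hold at least 1. That limit of 4 is the count of Cdk4 itself, whose window is among the 5. The fourth E-box (127063524 to 127063529) lay within the succinyllysine region, and the other 3 lay before it, all 4 within H3K4me3. The sequence is from RefSeq (GRCm38.p6), chr10:127063285-127063584, plus strand, 5′ to 3′.
Cdk4 promoter: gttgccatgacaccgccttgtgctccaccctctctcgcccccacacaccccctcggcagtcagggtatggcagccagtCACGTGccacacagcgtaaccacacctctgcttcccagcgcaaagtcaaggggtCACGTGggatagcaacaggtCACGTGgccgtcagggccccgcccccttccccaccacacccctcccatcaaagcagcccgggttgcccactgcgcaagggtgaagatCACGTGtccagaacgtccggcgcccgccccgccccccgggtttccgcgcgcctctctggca

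Of the other promoters with an entry, Cdk6 held 1 E-box and 1 TATAAA match, and Mycl held 1 TATAAA match and 0 E-boxes. TATAAA occurred in 12.6% of all promoter windows. The GC box GGGCGG was found 3 times in the Cdk4 promoter, 2 times each in the Mycn promoter and in both Ccnd3 promoters, 1 time in that of Mycl and 0 times in that of Cdk6, and 46.2% of all promoter windows held it. TGAGTCA (AP-1, 4.66% of windows) and TGACGTC (CRE, 3.84%) were not found in the windows of these 5 genes. E2F matches were found in Mycn alone of the 5, and in 12.1% of all windows.

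Cdk6 (chromosome 5, 3341004 to 3531008), the other partner kinase of the D cyclins, had H3K4me3 of 6400 bp (3340001 to 3346400) at its lower end, and 92.6% of genes with H3K4me3 at an end had a narrower widest region. The region covered the whole annotated promoter. Its 190005 bp body held no other region of any list. The H3K4me3 regions within 100 kb included 1 of 400 bp, 1.1 kb below the gene, and 1 of 3300 bp at Fam133b, 12.6 kb above it. The nearest H3K27me3 region was 379092 bp away and the nearest succinyllysine region 2810992 bp away, and 89.2% and 97.2% of all genes had closer ones.

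**Figure D3:**
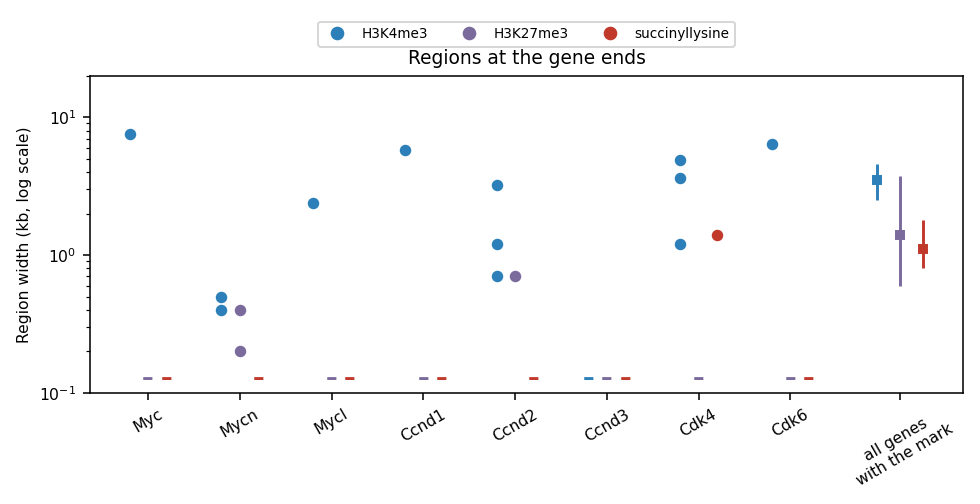
Width in kb (log scale) of each region at the ends of the 8 genes, 1 point per region, with a dash where a mark was not listed at an end. Squares and bars at the right give the median and quartiles of the widest region at an end over all genes with that mark. H3K4me3 ranged from 400 bp at Mycn to 7500 bp at Myc.

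Coverage of the flanks also differed between the genes. Succinyllysine covered 9600 bp of the flanks of Myc and 0 bp in those of the other 7 genes, and the median over all genes was 0 bp. H3K27me3 covered 74100 bp in the flanks of Ccnd2 and 43970 bp in those of Ccnd1, and at most 5790 bp (Mycl) in the others, against a median of 1200 bp over all genes. Of all genes, 97.5% had less than Ccnd2 and 92.8% less than Ccnd1. H3K4me3 covered 32834 bp in the flanks of Cdk4 and 28200 bp in those of Ccnd3, 5912 to 8840 bp in those of Myc, Mycl, Ccnd1, Ccnd2 and Cdk6, and 200 bp in those of Mycn, against a median of 6300 bp over all genes.

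**Figure D4:**
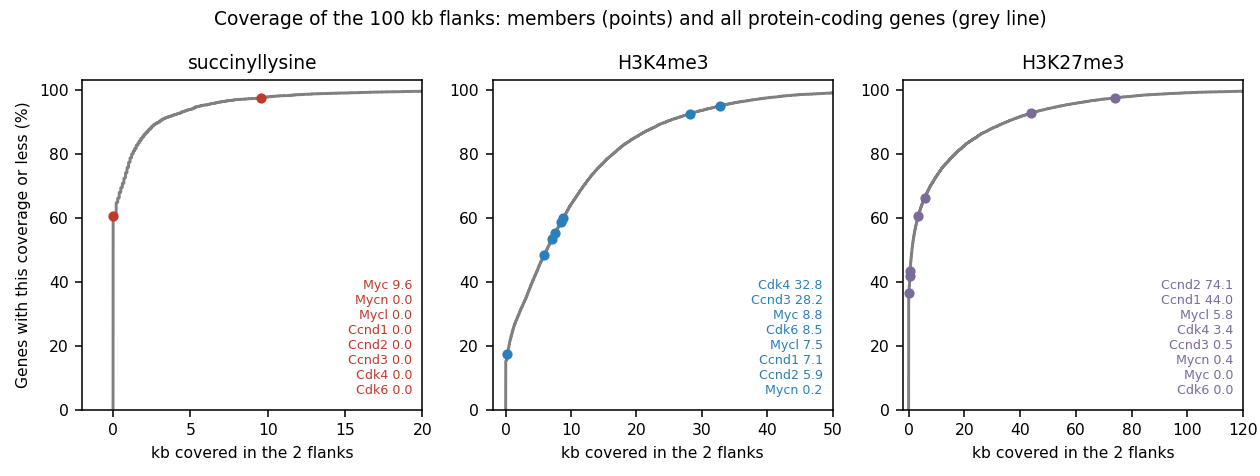
Kilobases of the flanks covered by each mark (x axis) and percent of protein-coding genes with that coverage or less (y axis, grey line); the points are the 8 genes, whose values are listed in each panel. Myc stood apart from the other 7 in succinyllysine (9600 bp), and Ccnd2 and Ccnd1 from the other 6 in H3K27me3 (74100 and 43970 bp).

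For each gene, the protein-coding gene with the most similar arrangement was found over 9 measures, the bp covered by each of the 3 marks at the ends, in the interior and in the flanks. Likeness was the Euclidean distance on the log2(bp + 100) scale, and genes within 200 kb of the member were left out. The closest match was Bcorl1 for Cdk6 (distance 0.104), followed by Pheta1 for Ccnd1 (0.149), Dlx5 for Mycl (0.439), Socs3 for Myc (0.758), Zfp661 for Ccnd2 (0.951), Dnlz for Cdk4 (1.35), Rhobtb2 for Ccnd3 (1.95) and Gpr37 for Mycn (3.0). At Myc, succinyllysine covered 9600 bp of the flanks and 0 bp at the ends, against 12900 and 0 bp at Socs3, a cytokine signalling inhibitor gene. At Mycn, H3K4me3 covered 900 bp and H3K27me3 465 bp at the ends, against 800 and 821 bp at Gpr37. These 2 genes differed most in succinyllysine of the flanks, with 0 bp at Mycn and 500 bp at Gpr37.

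The other genes of the pathway, 53 in 5 lists, carried H3K4me3 at an end in 48 cases (90.6%), succinyllysine in 7 (13.2%) and H3K27me3 in 3 (5.66%), beside 55.6%, 5.42% and 13.6% of all genes. Of the 10 Myc network genes, 9 had H3K4me3, 1 had succinyllysine and 1 had H3K27me3. Mnt, a repressor that competes with Myc for Max, had a 900 bp succinyllysine region at its end and 4 more inside, up to 3000 bp wide. Mlxipl, which encodes a glucose-responsive factor of the same network, had H3K27me3 at an end (5400 bp) and no H3K4me3 there. Mxd3 and Mxi1, which encode Max partners that oppose Myc, had H3K4me3 regions of up to 6000 and 4500 bp at their ends. The 6000 bp region lay in the lower end window of Mxd3 but ended below the gene body. A 4000 bp region covered the upper end of Mxd3.

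Of the 11 other cyclin and Cdk genes, 10 had H3K4me3, 1 had succinyllysine and 1 had H3K27me3. The succinyllysine region at Cdk7, the kinase that activates other Cdks, was 800 bp wide and shared no base with H3K4me3. Ccna1, the germline cyclin A gene, had H3K27me3 at both ends (up to 5200 bp). All 13 Rb and E2F genes had H3K4me3 at an end and 0 had H3K27me3. In this list succinyllysine was at E2f3, a transcription factor gene of S phase entry (900 bp, wholly within H3K4me3). The widest single H3K4me3 regions at an end were at E2f8 (5400 bp) and E2f7 (5000 bp). At E2f3, H3K4me3 regions of 4700 and 1300 bp followed each other without a gap. Rb1 had an H3K4me3 region of 5000 bp inside the gene.

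Of the 7 Cdk inhibitor genes, 5 had H3K4me3 and 3 had succinyllysine at an end, in each case wholly within H3K4me3. Cdkn2c, which encodes an inhibitor of Cdk4 and Cdk6, had succinyllysine regions of 1900 and 2000 bp, the first at its lower and the second at its upper end, under 1 H3K4me3 region of 13700 bp. Cdkn1b and Cdkn2a also carried it, in regions of 8200 and 1700 bp within H3K4me3 regions of 10300 and 12900 bp. The 8200 bp region of Cdkn1b was the widest succinyllysine region at an end in the 5 lists. Cdkn1c, an imprinted inhibitor gene, had H3K27me3 at an end (900 bp) and no H3K4me3. Of 12 textbook Myc targets, 11 had H3K4me3, 1 had succinyllysine and 0 had H3K27me3. The succinyllysine region lay at the translation factor gene Eif4a1 (800 bp, within H3K4me3), and H3K4me3 reached 5700 bp at the nucleolar protein gene Gnl3, 4900 bp at Npm1 and 4800 bp at Hspd1. The median width of the widest H3K4me3 region at an end was 4300 bp over the marked genes of the 5 lists and 3500 bp over all genes with the mark.

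**Figure D5:**
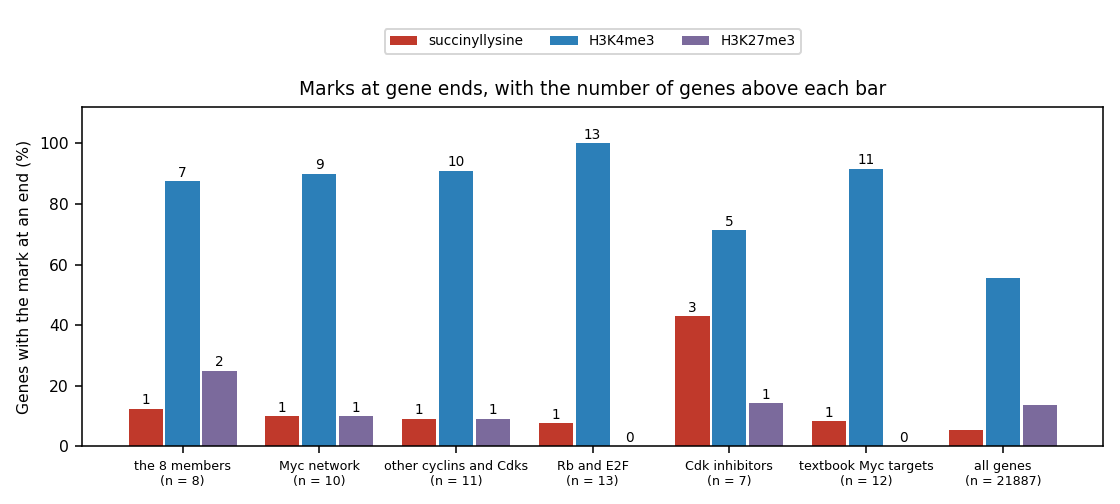
Percent of genes with each mark at an end (y axis) for the 8 genes, for 5 lists of other pathway genes and, at the right, for all 21887 protein-coding genes. Numbers above the bars are counts of genes, given for the 8 genes and the 5 lists. H3K4me3 was at an end of 7 of the 8 genes, and the Cdk inhibitors had the highest share with succinyllysine of the 5 lists (3 of 7).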

How the data were processed

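ChIP-seq was made for succinyllysine, H3K4me3 and H3K27me3 in 2 lines of immortalized mouse fibroblasts. The deposited lists hold start and end positions of regions, 1 list per antibody. The submitters' processing notes name Bowtie2 2.2.3 and mm10. How regions were called, on which reads of the 2 lines and against which input: not given in the sources used here. All positions lie on a grid of 100 bp and were read as 1-based and inclusive. Regions of a list never overlap but often abut (7.39% of succinyllysine, 13.9% of H3K4me3 and 23.3% of H3K27me3 regions touch another). Read depth is unknown, so the precision of a region cannot be given.

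Gene bodies came from RefSeq for GRCm38.p6, the build of mm10. Each region got 1 place per gene: at an end (within 1000 bp on each side), otherwise inside, otherwise beyond (within 100 kb). Covered bp in flanks exclude the end windows. Promoters from RefSeq were used for 5 of the 8 genes and 17492 of 21887 protein-coding genes. Python 3.11.15, numpy 2.4.6 and pandas 2.3.3 were used, and the placement was tested on simulated data. No test was run, since the lists hold no value per sample. The members, lists and alternatives were chosen with earlier results of these data known. Named genes were the 8 members, the closest match of each, and neighbours with succinyllysine or H3K27me3 at an end. Up to 4 genes per list were named by width at an end, except Rb1, named for a region inside the gene. Neighbours named for H3K4me3 alone were chosen after their values were seen. Alternatives were windows of 500 and 2500 bp, overlap of 50%, regions wider than the list median, merging within 1000 bp, annotated starts alone, and flanks of 50 and 200 kb. Joining of abutting regions was added after the data were seen. One neighbouring region of Cdk6 is not reported here.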

Additional observations from a re-analysis of the deposited data

How the results depend on the processing

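The counts of the 8 genes and of the pathway genes stayed within 1.5 times their value in 77 of 81 recomputations, which include the joining of abutting regions. Counts were compared without regard to the number of genes covered. Annotated starts alone cover 5 of the 8 genes and 44 of the 53 pathway genes, and there H3K4me3 was at an end of 5 genes in place of 7. The 4 exceptions follow from what each alternative counts. H3K27me3 at an end was found for 1 gene in place of 2 with regions wider than the list median, where Mycn dropped out, and for 1 with annotated starts alone, which only 5 of the 8 genes have. With end windows of 2500 bp, 0 genes in place of 1 had H3K4me3 inside the gene only. With flanks of 200 kb, 4 genes in place of 1 had succinyllysine beyond the gene, namely Myc, Mycl, Ccnd1 and Cdk4. Of 54 recomputed widths 12 moved: merging regions within 1000 bp widened H3K4me3 to 13700 bp at Cdk4 and 7300 bp at Ccnd2, and H3K27me3 to 15400 bp at Ccnd2. Joining abutting regions, added after the data were seen, changed no count of genes with a mark at an end.

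No paired analysis was possible because the lists carry no value per sample or replicate number, and for the same reason no replicate was left out. The lists hold no score, height or read count, so a region just above the calling threshold and a strong one look alike. Widths depend on how adjoining calls were split: 53 of the 163 regions abut another of the same list.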
